A study of Mus musculus with 10 samples.

Results

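The genes described here encode 10 proteoglycans of the vessel wall, taken by gene name from the 55426 genes of the expression table. They are *Bgn*, *Dcn*, *Aspn*, *Fmod*, *Lum*, *Prelp*, and *Ogn*, which are 7 small leucine-rich genes, the large chondroitin sulfate genes *Vcan* and *Acan*, and the basement membrane heparan sulfate gene *Hspg2*. All 10 were among the 15668 genes with a mean level of at least 0.5 TPM, a read share corrected for transcript length, that were tested. RNA-Seq came from the thoracic aorta of 3 control mice and 3 *Prdm16*SMKO mice. Both groups carried floxed *Prdm16* alleles (Prdm16f/f), and *Prdm16*SMKO mice also carried SMMHC-CreERT2, a tamoxifen-inducible Cre driven by the promoter of the smooth muscle myosin gene *Myh11*. By the study's methods, the knockout was induced at 8 weeks of age with tamoxifen at 75 mg/kg/day for 5 days and a washout of 2 weeks, on a C57BL/6J background. Whether the controls also received tamoxifen, and the hour at which aortas were taken, are not given in the sources used here. The Cre acts in smooth muscle cells, whereas the whole aortic wall was sequenced, so that *Prdm16* remains intact in its other cells. Binding was measured in primary mouse vascular fibroblasts infected for 48 hours with lentivirus for PRDM16 or an empty vector and selected for 1 week with 2 μg/mL puromycin, with 1 anti-Flag ChIP-Seq library each. That assay shows binding of introduced PRDM16 in fibroblasts, not of the native protein in aortic smooth muscle.

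Proteoglycans are core proteins that carry long sulfated sugar chains. The small leucine-rich members bind collagen fibrils and limit or guide their growth, the large chondroitin sulfate members bind hyaluronan and hold water in the wall, and perlecan, the product of *Hspg2*, anchors growth factors in the basement membrane around smooth muscle cells. In the aorta, smooth muscle cells and adventitial fibroblasts are known sources of these proteins, and a smaller amount or another mix of them is a familiar feature of a remodeled wall.

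*Prdm16* was measured at 56.07, 47.56, and 40.28 TPM in control aortas 1 to 3 and 23.31, 33.32, and 23.42 TPM in *Prdm16*SMKO aortas 1 to 3. Every *Prdm16*SMKO aorta lay below every control aorta, with a log2 fold change of −0.85 (SE 0.18, n = 3 per group), and limma gave an adjusted *P* of 0.0725, above the threshold of 0.05. Without *Prdm16*SMKO aorta 2, the least reduced and so picked by its value, the log2 fold change was −1.02 and the limma adjusted *P* was 0.0398. With any other aorta left out, the limma adjusted *P* was 0.111 to 0.23, above the threshold. Across the table, 168 of 15668 genes were called (1.07%), 61 higher and 107 lower, and the table as a whole was shifted, with a median of −0.12 on the log2 scale. After the aortas were rescaled by their median ratio, which removes this shift, 413 genes were called (2.64%), 200 higher and 213 lower. Mitochondrial genes took 14.7% of the TPM in control aorta 1 and between 16.1% and 26.5% in the other aortas. The most abundant gene of each aorta took from 20.2% of the TPM in control aorta 2 to 28.2% in *Prdm16*SMKO aorta 1. Each aorta was 1 library, and *P* values measure the spread between these libraries only.

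The sequences of the reference genome at the start sites and binding sites used below are shown first, because they differ widely in base composition and because 1 of the binding sites is a simple repeat. RefSeq's promoter table (GRCm38.p6) held 8 of the 10 genes. The 250 bases before the start site, on the strand of the gene, are printed for *Bgn* (chrX:73483351-73483600, plus strand), *Aspn* (chr13:49544193-49544442, plus strand), and *Acan* (chr7:79052976-79053225, plus strand), the 3 genes that were lower in every *Prdm16*SMKO aorta, and for *Vcan* (chr13:89742513-89742762, minus strand), whose start site lay under a PRDM16 peak. Capitals mark matches, on either strand, to TATAAA for the TATA box, AGATAA for the core of GATA factor sites, CACGTG for the E-box, TGANTCA for AP-1, and CAGACA for SMAD proteins.
Bgn promoter: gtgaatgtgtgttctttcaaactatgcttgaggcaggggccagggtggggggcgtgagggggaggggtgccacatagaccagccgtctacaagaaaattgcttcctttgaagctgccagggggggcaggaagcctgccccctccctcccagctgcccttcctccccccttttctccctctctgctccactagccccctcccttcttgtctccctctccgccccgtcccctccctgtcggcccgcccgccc
Aspn promoter: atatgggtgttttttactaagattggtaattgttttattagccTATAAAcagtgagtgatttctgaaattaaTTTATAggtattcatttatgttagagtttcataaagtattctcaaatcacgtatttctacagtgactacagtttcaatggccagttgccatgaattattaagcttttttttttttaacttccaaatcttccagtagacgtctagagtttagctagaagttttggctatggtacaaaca
Acan promoter: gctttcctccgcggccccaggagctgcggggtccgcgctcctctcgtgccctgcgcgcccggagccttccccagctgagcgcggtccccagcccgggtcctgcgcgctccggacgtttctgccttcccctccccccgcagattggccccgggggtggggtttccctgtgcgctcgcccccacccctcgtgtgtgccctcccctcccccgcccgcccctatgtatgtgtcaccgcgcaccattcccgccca
Vcan promoter: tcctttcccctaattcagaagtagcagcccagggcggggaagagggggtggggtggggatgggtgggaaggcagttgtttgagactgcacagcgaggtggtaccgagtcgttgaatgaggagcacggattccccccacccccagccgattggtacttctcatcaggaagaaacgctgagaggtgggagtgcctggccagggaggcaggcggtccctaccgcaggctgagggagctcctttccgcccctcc

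The *Aspn* promoter was one of the most AT-rich in the table, with 30.0% G or C and only 1.5% of all 32851 promoters below it, and it held the TATA letters 207 and 178 bases before the start site. The *Acan* promoter stood at the other end, with 74.4% G or C, above 95.4% of promoters, and 26 CpG pairs against 2 in *Aspn*. The *Bgn* and *Vcan* promoters had 64.4% and 62.4% G or C, with 7 and 10 CpG pairs. None of the 5 motifs matched in the *Bgn*, *Acan*, *Vcan*, *Hspg2*, or *Prelp* windows, *Fmod* held the GATA letters once, and *Ogn* held the TATA letters in 2 overlapping matches. Of all promoters of this length, 12.4% held the TATA, 9.99% the GATA, 6.02% the E-box, 6.75% the AP-1, and 17.1% the SMAD letters. The 3 genes that were lower in every *Prdm16*SMKO aorta had promoters with no motif match in common among these 5.

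For the binding sites, 201 bases around the peak summit are printed from the plus strand of GRCm38 for the strongest *Vcan* peak (chr13:89739534-89739734), the strongest peak in the body of *Hspg2* (chr4:137469726-137469926), the strongest peak near *Prelp* (chr1:133953525-133953725), and the peak between *Dcn* and *Lum* (chr10:97547239-97547439).
Vcan intron peak: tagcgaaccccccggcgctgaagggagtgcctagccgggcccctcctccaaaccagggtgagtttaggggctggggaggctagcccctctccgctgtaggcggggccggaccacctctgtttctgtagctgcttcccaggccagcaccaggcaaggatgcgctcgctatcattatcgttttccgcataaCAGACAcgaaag
Hspg2 intron peak: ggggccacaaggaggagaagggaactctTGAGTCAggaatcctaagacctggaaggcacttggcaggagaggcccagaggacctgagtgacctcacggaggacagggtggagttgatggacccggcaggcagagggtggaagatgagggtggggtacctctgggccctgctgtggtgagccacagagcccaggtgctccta
Prelp upstream peak: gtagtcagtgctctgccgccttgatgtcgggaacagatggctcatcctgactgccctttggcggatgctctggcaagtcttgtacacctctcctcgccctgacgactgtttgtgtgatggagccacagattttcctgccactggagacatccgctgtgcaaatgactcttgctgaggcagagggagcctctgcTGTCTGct
Dcn and Lum intergenic peak: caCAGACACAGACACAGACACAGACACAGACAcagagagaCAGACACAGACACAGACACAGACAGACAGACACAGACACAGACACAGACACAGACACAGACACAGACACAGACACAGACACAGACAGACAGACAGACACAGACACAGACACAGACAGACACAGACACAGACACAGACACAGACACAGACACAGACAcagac

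The window between *Dcn* and *Lum* was a tandem repeat from end to end, in which the SMAD letters matched 33 times with overlaps between matches. All of its bases were repeat-masked in the reference, as in 85 of 11258 PRDM16 summit windows (0.755%), and 11 windows (0.0977%) held 10 or more SMAD matches. The *Vcan* and *Prelp* windows held 1 SMAD match each and the *Hspg2* window 1 AP-1 match. A match is a description of the letters and does not show which protein is bound.

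*Bgn* was by far the most abundant of the 10 transcripts. TPM are per length, so the genes can be ordered by level within an aorta. The mean TPM over the 6 aortas was 2034 for *Bgn*, followed by *Ogn* at 441, *Dcn* at 365, *Hspg2* at 347, and *Prelp* at 299. A second tier held *Fmod* at 40.3, *Lum* at 37.8, *Aspn* at 37.4, and *Vcan* at 34.8 TPM, and *Acan*, the cartilage proteoglycan aggrecan, was lowest at 7.07 TPM. *Bgn* exceeded *Ogn*, *Hspg2* exceeded *Prelp*, *Prelp* exceeded *Fmod*, and *Vcan* exceeded *Acan* in 6 of 6 aortas. The 2-sided exact sign-flip permutation test of each of these within-aorta ratios gave 0.0312, the smallest *P* that 6 aortas allow, and 0.0702 after adjustment over the 9 neighboring pairs. The other neighbors had exact sign-flip *P* values from 0.0625 to 0.969, and *Dcn* exceeded *Hspg2* in only 2 of 6 aortas. No order can therefore be given between *Ogn* and *Dcn*, between *Dcn* and *Hspg2*, or within the second tier above *Acan*. The order was not the same in the groups, since *Lum* ranked below *Aspn*, *Fmod*, and *Vcan* in the control means and above them in the *Prdm16*SMKO means.

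**Figure D1:**
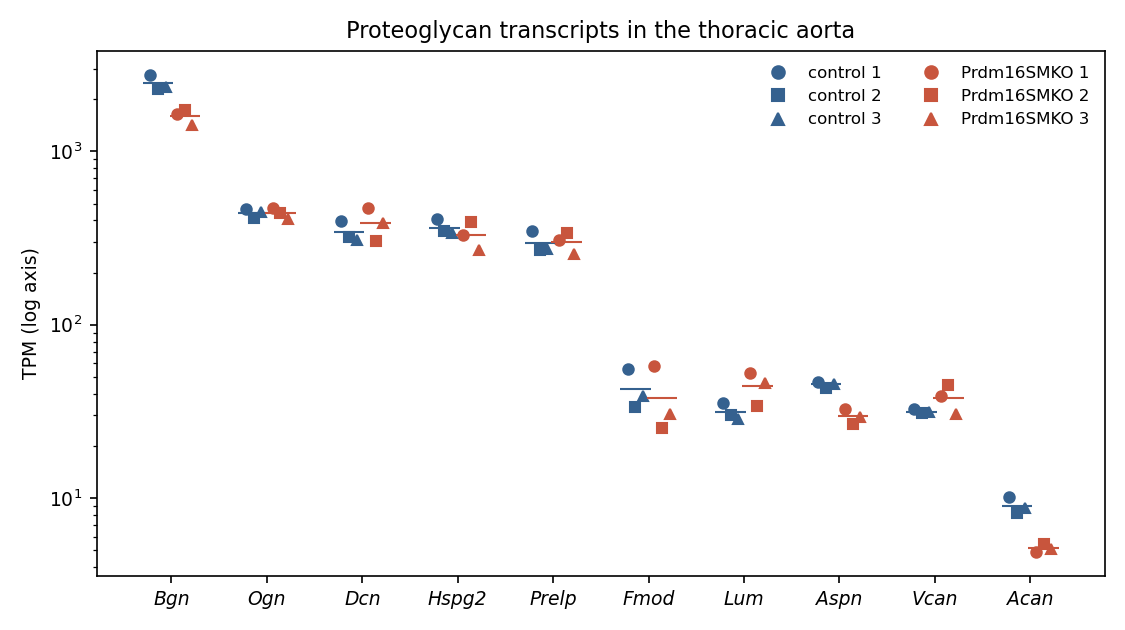
TPM of the 10 proteoglycan genes on a log axis, with 1 symbol per aorta (blue, 3 control; red, 3 *Prdm16*SMKO) and a line at each group mean. *Bgn*, *Aspn*, and *Acan* are lower in all 3 *Prdm16*SMKO aortas than in any control aorta, and the other 7 genes overlap between the groups.

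None of the 10 genes passed the threshold in the limma fit, where 1.07% of all tested genes did. At an unadjusted limma *P* under 0.05 there were 4, *Aspn*, *Bgn*, *Acan*, and *Lum*, against 12.7% of all tested genes. The groups did not overlap for 3 members, *Bgn*, *Aspn*, and *Acan*, all lower in *Prdm16*SMKO, where 14.9% of all tested genes did not overlap in that direction. No member was higher without overlap, against 4.08% of all tested genes. The median log2 fold change of the 10 genes was −0.08, near the −0.12 of all tested genes.

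**Figure D2:**
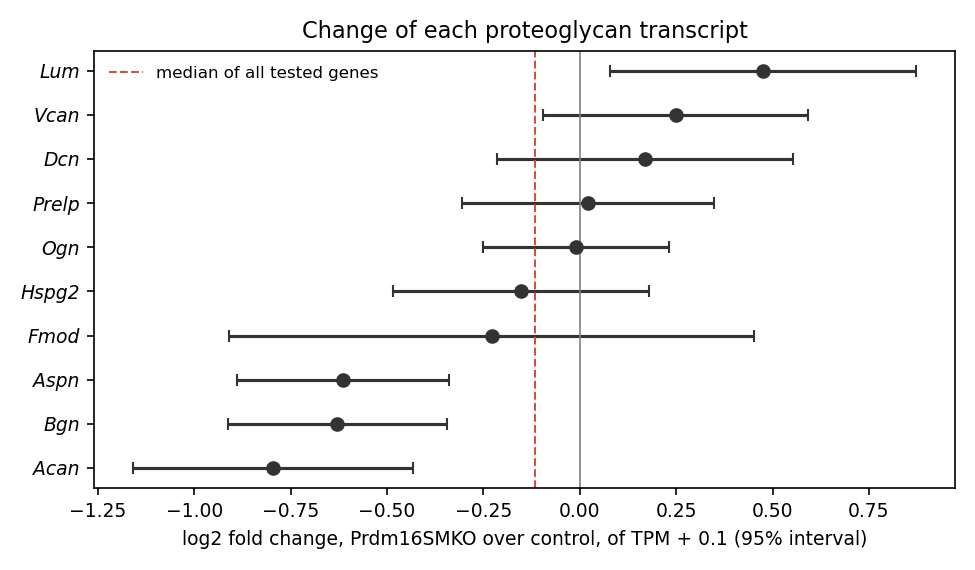
Log2 fold change of each proteoglycan gene, *Prdm16*SMKO over control, on the scale of log2(TPM + 0.1), with its 95% interval from limma (3 aortas per group) and a dashed line at the median of all tested genes, −0.12. The intervals of *Acan*, *Bgn*, and *Aspn* lie wholly below that line and the interval of *Lum* wholly above 0, but none of the 4 passed the adjusted threshold.

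*Bgn* encodes biglycan, a small proteoglycan with chondroitin or dermatan sulfate chains that binds collagen and elastic fiber proteins and whose loss is known to weaken the aortic wall. Its transcript was measured at 2772.73, 2279.83, and 2361.13 TPM in control aortas 1 to 3 and 1648.01, 1725.99, and 1417.40 TPM in *Prdm16*SMKO aortas 1 to 3. Control and knockout values did not overlap, and the *Prdm16*SMKO mean of 1597 TPM ± 160 (SD, n = 3) was 35.4% below the control mean of 2471 TPM ± 264 (SD, n = 3). The log2 fold change was −0.63 (SE 0.13), with a limma adjusted *P* of 0.0577. In a bulk sample, fewer cells of a type and less RNA per cell cannot be told apart. The list of 10 smooth muscle markers had a summed level of 23374 to 27404 TPM in control and 16142 to 20538 TPM in *Prdm16*SMKO aortas, with none of the 10 called, and the part of this in the *Bgn* values was not tested. At an unadjusted limma *P* under 0.05 there were 5 of these markers, with *Acta2*, *Tagln*, *Cnn1*, and *Lmod1* lower and *Des* higher, at 0.45 on the log2 scale without overlap. The summed level of the 12 fibroblast markers overlapped between the groups, at 1954 to 2479 and 1615 to 2067 TPM.

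*Aspn* encodes asporin, a relative of biglycan with a run of aspartates in place of the glycosaminoglycan chains. It was measured at 46.82, 43.38, and 45.50 TPM in control aortas 1 to 3 and 32.65, 26.76, and 29.38 TPM in *Prdm16*SMKO aortas 1 to 3. All *Prdm16*SMKO aortas were lower, by 34.6% on the group means, with a log2 fold change of −0.61 (SE 0.12) and a limma adjusted *P* of 0.0577. *Cenpp*, on the opposite strand over *Aspn* and *Ogn*, did not exceed 0.94 TPM. Whether the counting used strand is not given in the sources used here.

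*Acan* encodes aggrecan, the large hyaluronan-binding proteoglycan of cartilage that also occurs in the media of large arteries. It was measured at 10.17, 8.16, and 8.72 TPM in control aortas 1 to 3 and 4.90, 5.42, and 5.08 TPM in *Prdm16*SMKO aortas 1 to 3. Control and knockout values did not overlap, and the log2 fold change of −0.80 (SE 0.16, limma adjusted *P* = 0.0597) was the largest among the 10 genes, with a *Prdm16*SMKO mean 43.1% below the control mean. The summed level of the chondrocyte list was 26.1 to 33.4 TPM in control and 15.8 to 20.5 TPM in *Prdm16*SMKO aortas, and its part in the *Acan* values was not tested. That sum was mostly *Comp*, a cartilage and smooth muscle matrix protein that fell by 0.99 on the log2 scale (limma adjusted *P* = 0.0153). The call of *Comp* was lost without control aorta 1 (adjusted *P* = 0.0549) or control aorta 2 (adjusted *P* = 0.072). Of the 8 chondrocyte genes, 4 were abundant enough to test, and *Matn1* was listed at 0 in every aorta. The genes did not differ in 1 direction: *Col11a2*, a cartilage collagen, had a log2 fold change of 0.69 (limma adjusted *P* = 0.367) and *Sox9*, the cartilage transcription factor, one of −0.36 (adjusted *P* = 0.571). *Col2a1*, the defining cartilage collagen, was at 0.63, 0.94, and 0.82 TPM in the controls and at 0.05 and 0.50 TPM in *Prdm16*SMKO aortas 2 and 3, while *Prdm16*SMKO aorta 1 lay above every control.

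*Lum* encodes lumican, a keratan sulfate proteoglycan that spaces collagen fibrils. It was the member with the largest positive difference, at 35.55, 30.14, and 28.62 TPM in the control and 52.68, 34.08, and 45.95 TPM in the *Prdm16*SMKO aortas. *Prdm16*SMKO aorta 2 lay within the control range, and the log2 fold change was 0.47 (SE 0.18), with a limma adjusted *P* of 0.299. *Vcan*, which encodes versican, the main large chondroitin sulfate proteoglycan of the arterial intima and media, was measured at 32.73, 30.81, and 31.23 TPM in control and 38.73, 44.65, and 30.61 TPM in *Prdm16*SMKO aortas. *Prdm16*SMKO aorta 3 lay below every control aorta and the others above, with a log2 fold change of 0.25 (limma adjusted *P* = 0.531). The study's own list of differentially expressed genes with a PRDM16 promoter peak holds *Vcan* as higher in *Prdm16*SMKO aortas. The study's methods do not name the test behind that list. It gives a base mean per gene, not TPM, and a larger log2 fold change for *Vcan* than the fit used here. The fit used here did not call *Vcan*. After median ratio rescaling, *Lum* and *Vcan* were higher without overlap, at 0.60 and 0.37 on the log2 scale, and neither was called. In that setting 11.0% of all tested genes were higher without overlap, against 4.08% before it. The antisense transcript *Gm4117* over *Vcan* reached 0.93 to 2.11 TPM.

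The other 5 members overlapped between the groups, and no log2 fold change among them was past 0.23 in size. *Dcn* encodes decorin, the collagen-binding small proteoglycan of the adventitia, and was measured at 394.98, 321.23, and 310.18 TPM in control and 472.90, 304.77, and 387.77 TPM in *Prdm16*SMKO aortas. *Hspg2* was measured at 404.73, 348.89, and 337.66 TPM in control and 327.56, 390.16, and 271.39 TPM in *Prdm16*SMKO aortas, with a log2 fold change of −0.15 and an interval from −0.49 to 0.18. The *Prdm16*SMKO aortas spread wider than the controls for both genes, and *Prdm16*SMKO aorta 2 was lowest for *Dcn* and highest for *Hspg2*. *Fmod* encodes fibromodulin, a fibril-binding relative of lumican, and varied most within groups, from 33.71 to 55.57 TPM in control and from 25.44 to 58.05 TPM in *Prdm16*SMKO aortas. Its log2 fold change of −0.23 became 0.01 without *Prdm16*SMKO aorta 2. *Prelp*, which encodes a heparin- and collagen-binding protein of connective tissue, had a log2 fold change of 0.02, and *Ogn*, which encodes osteoglycin (mimecan), one of −0.01. *Ogn* ranged from 413.35 to 466.72 TPM in control and from 405.43 to 471.46 TPM in *Prdm16*SMKO aortas, and its interval of −0.25 to 0.23 was the narrowest of the 10.

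Among control aortas, aorta 1 held the highest value of all 10 genes, and among *Prdm16*SMKO aortas, aorta 1 and aorta 2 were highest for 5 genes each. A plain TPM ratio of 2 genes within an aorta does not depend on how that aorta was scaled. The ratios of members in this paragraph were taken on TPM + 0.1, so for them this holds only approximately, least closely for genes of low level. Of the 45 pairs of members, 25 had ratios that did not overlap between the groups (55.6%), whereas 20.7% of all pairs of tested genes did not. Pairs share genes, so they are not independent, and no test was made of this count. *Bgn*, *Aspn*, and *Acan* were each lower relative to 6 of the 9 other members, and higher relative to none. *Lum* and *Vcan* were each higher relative to 6 members and lower relative to none. The 3 lower genes did not separate from one another. *Bgn* over *Acan*, for example, was 268 to 276 in control and 274 to 330 in *Prdm16*SMKO aortas on TPM + 0.1, a narrow overlap.

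The share of *Bgn* in the summed TPM of the 7 small leucine-rich genes was 67.3%, 67.2%, and 67.3% in control aortas 1 to 3, compared with 54.1%, 59.5%, and 55.1% in *Prdm16*SMKO aortas 1 to 3. The control values lay within 0.1 percentage point of each other on this scale, and every *Prdm16*SMKO aorta was lower. *Bgn* over *Dcn* was 7.02, 7.10, and 7.61 in control and 3.48, 5.66, and 3.66 in *Prdm16*SMKO aortas, with *Prdm16*SMKO aorta 2 nearest to the controls. Only the summed levels of the small and of the large genes and the ratio of these sums were planned. The *Bgn* share and *Bgn* over *Dcn* were not in that plan, and the pairs shown next were chosen after their values were seen. *Lum* over *Aspn* was 0.759, 0.695, and 0.629 in control and 1.61, 1.27, and 1.56 in *Prdm16*SMKO aortas, so that the more abundant of the pair was *Aspn* in every control and *Lum* in every *Prdm16*SMKO aorta. *Vcan* over *Acan* was 3.22, 3.78, and 3.58 in control and 7.90, 8.24, and 6.03 in *Prdm16*SMKO aortas. The summed TPM of the 7 small genes was 3391 to 4118 in control and 2572 to 3044 in *Prdm16*SMKO aortas, whereas that of the 3 large genes overlapped, at 378 to 448 and 307 to 440. The planned ratio of the small to the large sum was 9.2, 8.74, and 9.29 in control and 8.2, 6.59, and 8.37 in *Prdm16*SMKO aortas.

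**Figure D3:**
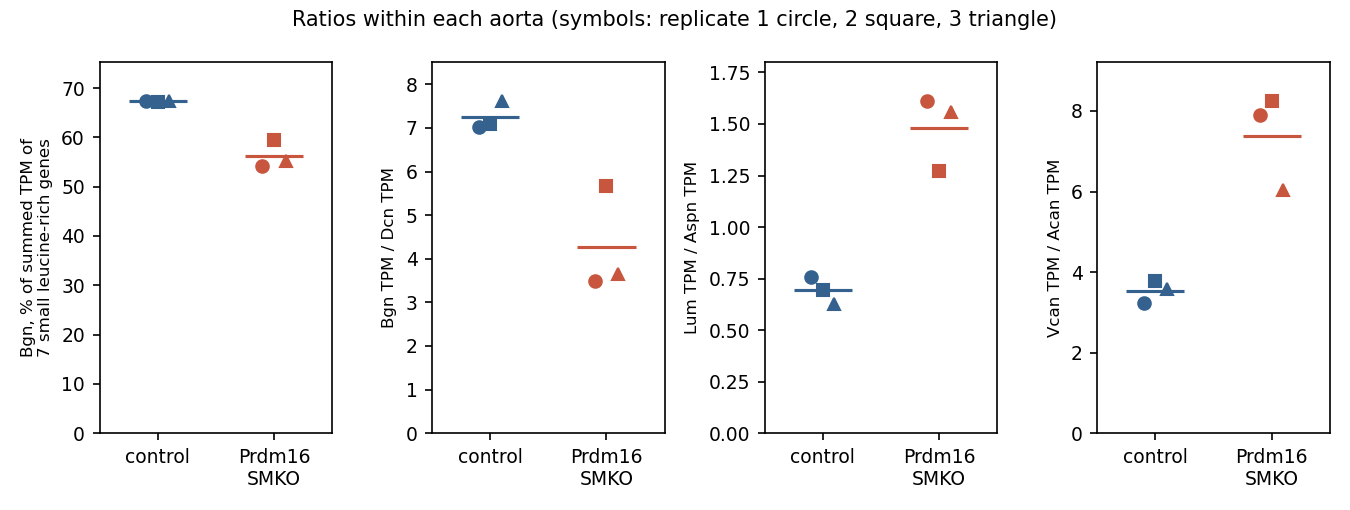
Ratios within each aorta on linear axes from 0: the share of *Bgn* in the 7 small leucine-rich genes in percent, and the TPM ratios of *Bgn* to *Dcn*, *Lum* to *Aspn*, and *Vcan* to *Acan* (blue, 3 control; red, 3 *Prdm16*SMKO; lines are group means). The groups do not overlap in any of the 4 panels, and the *Bgn* share is 67.2% to 67.3% in control and 54.1% to 59.5% in *Prdm16*SMKO aortas. None of the 4 was the planned ratio, and *Lum* to *Aspn* and *Vcan* to *Acan* were chosen after their values were seen.

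Of 100 other genes of proteoglycan biology, 75 were tested, and 3 were called in the limma fit, 1 higher and 2 lower, against 1.07% of all tested genes. At an unadjusted limma *P* under 0.05 there were 22, against 12.7% of all tested genes, and the median log2 fold change was −0.18. Without overlap, 21 genes were lower and 4 higher, against 14.9% and 4.08% of all tested genes. *Col18a1*, which encodes the basement membrane heparan sulfate proteoglycan collagen XVIII, was measured at 820.71, 704.64, and 720.52 TPM in control and 360.44, 435.96, and 331.01 TPM in *Prdm16*SMKO aortas. It fell by 1.00 on the log2 scale (limma adjusted *P* = 0.00909), whereas *Hspg2*, the other basement membrane heparan sulfate gene of this level, overlapped between the groups. *Optc*, which encodes opticin, a small leucine-rich protein, was measured at 122.95, 99.69, and 93.77 TPM in control and 50.65, 52.41, and 37.36 TPM in *Prdm16*SMKO aortas, and fell by 1.18 on the log2 scale (limma adjusted *P* = 0.0122). *Cd44*, the cell surface receptor for hyaluronan, rose by 0.86 (limma adjusted *P* = 0.0261), from 20.99 to 26.56 TPM in control to 37.87 to 45.23 TPM in *Prdm16*SMKO aortas. Its call was lost without control aorta 2, control aorta 3, *Prdm16*SMKO aorta 1, or *Prdm16*SMKO aorta 2, with adjusted *P* values of 0.104, 0.11, 0.112, and 0.0775. All 3 calls were lost when the spread was estimated without a trend on the mean level. The study's list of differentially expressed genes with a promoter peak holds *Cd44* as higher and does not hold *Col18a1* or *Optc*. It also holds *Comp* as lower.

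The small leucine-rich genes lie in clusters. *Optc* lies next to *Prelp* and *Fmod* on chromosome 1, at chr1:133897199-133907999, beside *Prelp* at chr1:133910304-133921414, and the log2 fold change was −1.18 for *Optc*, 0.02 for *Prelp*, and −0.23 for *Fmod*. *Ecm2* and *Omd* lie with *Aspn* and *Ogn* on chromosome 13, with log2 fold changes of −0.38 and −0.54 (limma adjusted *P* = 0.256 and 0.374) beside −0.61 for *Aspn* and −0.01 for *Ogn*. *Epyc* and *Kera* lie with *Dcn* and *Lum* on chromosome 10, where *Epyc* did not exceed 1.34 TPM and *Kera* did not exceed 0.04 TPM. *Podn*, which encodes podocan, another small leucine-rich protein, had a log2 fold change of 0.81 without overlap (limma adjusted *P* = 0.0738). The study's list of differentially expressed genes with a promoter peak holds *Podn* as higher.

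The enzymes that build the sugar chains gave no call in the limma fit. Their counts stand beside 12.7% of all tested genes at an unadjusted *P* under 0.05 and 14.9% lower without overlap. For the linker that joins every chain to its core protein, 6 of 6 genes were tested, with *B3galt6* at −0.95 (limma adjusted *P* = 0.17) and *Fam20b* at −0.18 (adjusted *P* = 0.613), and 1 at an unadjusted *P* under 0.05. For chondroitin and dermatan sulfate, 15 of 16 were tested and 3 had an unadjusted *P* under 0.05, with *Chsy1* at −0.40 and *Csgalnact1* at −0.58. For heparan sulfate, 14 of 21 were tested, 5 had an unadjusted *P* under 0.05, and 6 were lower without overlap. *Sulf2* was at −0.64 (limma adjusted *P* = 0.0567) and *Ext1* at −0.51 (adjusted *P* = 0.0937). Both are held as lower in the study's list of differentially expressed genes with a promoter peak. For keratan sulfate, the chain of lumican and fibromodulin, 5 of 7 were tested, and *B4galt1* was at −0.40 and *B4galt4* at −0.19. Of 6 tested ADAMTS proteases that cleave versican and aggrecan, none was called, 2 had an unadjusted *P* under 0.05, and *Adamts9* was at −0.63 and *Adamts5* at −0.45. Among hyaluronan genes, *Hapln1*, the link protein that fastens aggrecan and versican to hyaluronan, was at −1.24 (limma adjusted *P* = 0.244) with no more than 3.19 TPM in any aorta. *Spock2*, another proteoglycan, was at 0.71 (adjusted *P* = 0.221).

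The summed marker levels of 6 other cell types overlapped between the groups. The sums in control and *Prdm16*SMKO aortas were 718 to 2474 and 670 to 1494 TPM for adipocytes, 110 to 143 and 74.8 to 161 TPM for endothelium, 66.3 to 92.5 and 53.4 to 90.2 TPM for macrophages, 575 to 2760 and 453 to 1590 TPM for red blood cells, and at most 12.8 TPM for skeletal muscle and 12.2 TPM for Schwann cells. None of these lists held a called gene, and *Cldn5*, a tight junction gene of endothelium, was the 1 marker of these lists at an unadjusted limma *P* under 0.05, with a log2 fold change of −1.09 and no overlap (adjusted *P* = 0.169). Of the 12 fibroblast markers, 1 was called, *Col14a1*, a fibril-associated collagen, which rose by 0.98 on the log2 scale (limma adjusted *P* = 0.02) while the list median was −0.08. Its call was lost without control aorta 2 or 3 or without *Prdm16*SMKO aorta 1 or 2, with adjusted *P* values from 0.0642 to 0.0898. The aortas expressed the smooth muscle markers highest, with *Acta2* at 11024 to 12433 TPM in control and 6455 to 8230 TPM in *Prdm16*SMKO aortas (limma adjusted *P* = 0.0719).

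In fibroblasts, PRDM16 peaks fell in the bodies of only 2 of the 10 genes, *Hspg2* and *Vcan*. With introduced PRDM16 the anti-Flag library gave 11271 peaks, with a median fold enrichment over the local background of 5.27, and the vector library gave 67 peaks, none within 50 kb of a member. A peak centered within 2 kb of a start site was present for 2 of 10 members, against 43.4% of 13047 genes. A peak in the gene body was present for 2 of 10, against 44.4%, and a peak within 50 kb of the body for 6 of 10, against 76.0%. Each share of members was below that of all genes, with 1 library and no test.

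*Hspg2* (chr4:137468769-137570630) stood out by number. It held 10 peaks in its body of 101.9 kb, and 16 of 13047 genes (0.123%) held at least as many. This comparison was not adjusted for gene length, and a long body has more room for peaks. Of these, 9 were centered in introns and 1 in an exon, from 157 bases to 43.4 kb after the start site, and their fold enrichments of 3.53 to 6.01 were ordinary for the library. The nearest to the start, chr4:137468828-137469092, had a fold enrichment of 4.92, and the next, chr4:137469580-137469962, one of 6.01, and the latter is the window printed above. Peaks with a fold enrichment of 6.33 also lay 19.7 kb before and 23.6 kb past the gene, the latter at the gene *Usp48*. *Hspg2* lies on the chromosome of *Prdm16*, 16.7 Mb away.

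*Vcan* (chr13:89655312-89742509, minus strand) held 3 peaks in its body, and 514 of 13047 genes (3.94%) held at least as many, again without adjustment for length. The first, chr13:89742070-89742574, had a fold enrichment of 4.92 and reached 62 bases into the promoter sequence printed above. The second, chr13:89740595-89741630, had a fold enrichment of 5.63, and the third, chr13:89739302-89739919, 2.90 kb after the start in an intron, had one of 10.5. This last peak was the strongest at any member and was stronger than 97.6% of all PRDM16 peaks.

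The other members had no peak in the gene. *Dcn* (chr10:97479609-97518143) and *Lum* (chr10:97565128-97572703) shared 1 peak in the repeat between them, 29.1 kb past *Dcn* and 17.6 kb before *Lum*, with a fold enrichment of 4.92. *Prelp* had 3 peaks from 29.1 to 39.9 kb before its start, of which the strongest had a fold enrichment of 8.44, above 92.5% of all peaks. The nearest peak to *Acan* (chr7:79053483-79115099) lay 33.6 kb past its end, within *Mfge8*. The nearest to *Fmod* (chr1:134037254-134048277) lay 51.3 kb away, the nearest to *Aspn* (chr13:49544443-49567565) 82.7 kb away in *Ippk*, the nearest to *Ogn* (chr13:49608046-49624501) 146 kb away, and the nearest to *Bgn* (chrX:73483602-73495933) 1439 kb away. The 3 genes that were lower in every *Prdm16*SMKO aorta had no peak in the gene or its promoter. The TPM of the 2 genes with promoter peaks, *Hspg2* and *Vcan*, overlapped between the groups of aortas, and neither was called in the limma fit. The study itself lists *Vcan*, with its promoter peak, among the genes higher in *Prdm16*SMKO aortas. Promoters with a peak had a median of 63.6% G or C, and those without one 57.6%. The *Hspg2* and *Vcan* windows had 70.0% and 62.4%. The windows of members without a promoter peak ranged from 30.0% in *Aspn* to 74.4% in *Acan*, with 64.4% in *Bgn*.

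**Figure D4:**
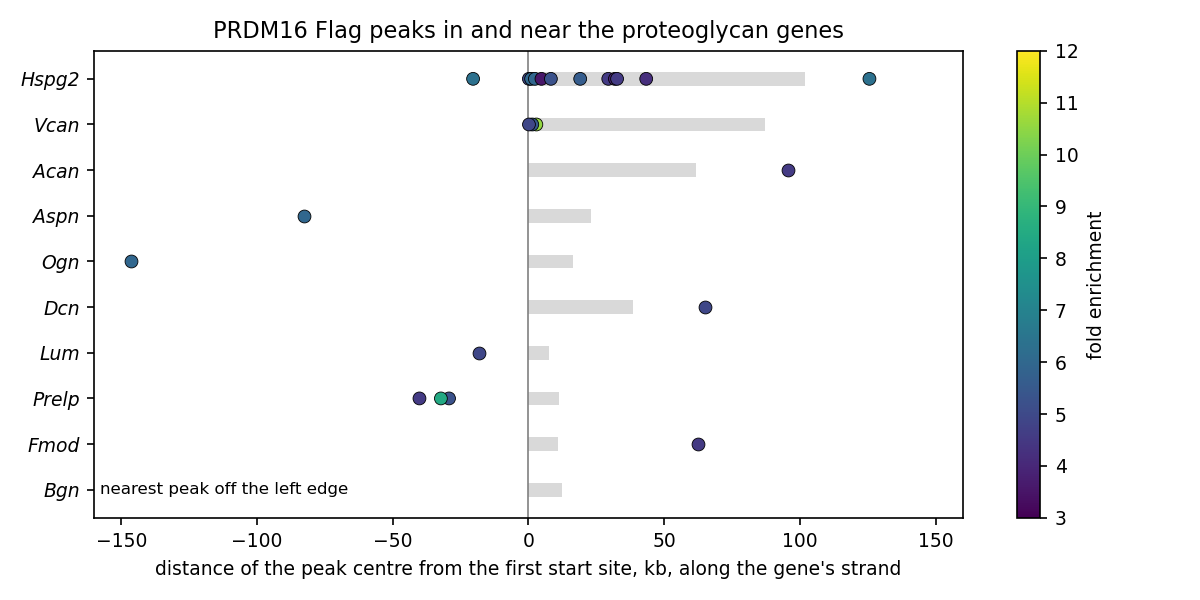
Centers of PRDM16 peaks relative to the first start site of each proteoglycan gene, in kb along the strand of the gene, for all peaks within 50 kb of a gene or otherwise the nearest, colored by fold enrichment (gray bars are gene bodies, 1 library). *Hspg2* holds 10 peaks and *Vcan* 3 in the gene body, the other 8 genes hold none, and the nearest peak to *Bgn* lies outside the plot.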

How the data were processed

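Total RNA of whole thoracic aortas was sequenced from poly(A)-selected libraries. The authors deposited TPM per gene, with 1 column per aorta, and their processing notes name STAR 2.7.8a and RSEM 1.3.3. TPM keep no depth, so no counting interval was computed and depth is unknown. The authors called ChIP-Seq peaks with MACS2 on GRCm38, and the deposited lists hold the fold enrichment as a ratio and the −log10 q value of each peak. The control library of the peak calls is not given in the sources used here. The IgG libraries were not used here.

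Samples were grouped by their titles. Log2(TPM + 0.1) was fitted with limma 3.58.1 (lmFit, eBayes with a trend) in R 4.3.3 over the 15668 genes whose TPM averaged 0.5 or more, with Benjamini-Hochberg adjustment and a threshold of 0.05. The fit was tested on simulated data with changes larger than those of any member. It missed more of the changed genes than it recovered, so a gene that was not called may still differ. Equal replicate numbers did not mark paired aortas (correlations of deviations −0.0246, −0.07, and −0.00896). Members and lists were chosen with earlier results of these data known. Named genes are the 10 members, *Prdm16*, and the 2 with the smallest *P* per pathway list, which include the called ones. Others are cluster neighbors, enzymes that the study's list holds as higher, genes at peaks or overlapping a member, and markers. Markers were named for their level, their *P*, or their direction, not by a single fixed rule. Start sites and sequences came from RefSeq for GRCm38.p6, and gene bodies from the GENCODE annotation. Alternatives covered the pseudocount, filter, scaling, trend, gene class, block, each aorta left out, and the peak thresholds.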

Additional observations from a re-analysis of the deposited data

How the results depend on the processing

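Over 15 alternative fits, *Bgn*, *Aspn*, and *Acan* stayed lower, with log2 fold changes of −0.69 to −0.45, −0.69 to −0.47, and −0.86 to −0.68 and limma adjusted *P* values of 0.0205 to 0.24, 0.0302 to 0.179, and 0.0278 to 0.216. All 3 were called with a mean TPM of at least 1 or with protein-coding genes only. In those settings 1.44% of 13686 and 2.28% of 12779 tested genes were called. *Bgn* and *Acan*, 2 members, were called after median ratio rescaling or quantile normalization, against 2.64% and 2.50% of all tested genes. The count over all genes was 110 without a TPM filter, 413 after median ratio rescaling, 392 after quantile normalization, 48 without a trend, 291 with protein-coding genes only, and 91 to 141 with 1 aorta left out. *Prdm16* was at −0.73 after median ratio rescaling, −0.72 after quantile normalization, −0.85 with protein-coding genes only, each called, and −1.02 to −0.73 with 1 aorta left out. Members higher without overlap numbered 2 after either rescaling, where 1724 and 1568 of 15668 tested genes were (640 without rescaling), and 0 to 1 with 1 aorta left out, where 5.18% to 10.4% were. Pathway genes called numbered 5 after median ratio rescaling, quantile normalization, or with protein-coding genes only and 0 without a trend, and marker genes called 1 without a TPM filter, 0 without a trend, and 0 to 2 with 1 aorta left out. Signs changed for *Ogn* (0.11 and 0.15 after median ratio rescaling and quantile normalization, −0.06 to 0.05 with 1 aorta left out), *Hspg2* (0.01 after quantile normalization), *Prelp* (−0.07 to 0.14 with 1 aorta left out), and *Fmod* (−0.58 to 0.01 with 1 aorta left out). The causes were not tested. With near taken as 10 kb, 2 members had a peak, and in control aortas alone 4 members kept their rank of level. With the replicate number as a block, 184 genes were called, 144 of them shared with the fit without it, and no member was called. The numbers were not found to pair the aortas.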
